A study of Homo sapiens with 5 samples.

Results

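The genes described here are the enzymes of glycolysis and of the pentose phosphate pathway, the carriers of glucose and lactate, the regulators of glycolytic flux and of pyruvate dehydrogenase, and the factors that sense oxygen with some of their classical targets. They were chosen by symbol, as a list of 40 genes, and all 40 were found among the 26364 names of the table. The mRNA-seq libraries came from IMR-90 cells in growth (a line of normal human lung fibroblasts with a finite life span), kept in DMEM/F12 with 10% heat-inactivated serum and collected 24 hr after siRNA transfection. Ctr-KD cells (2 libraries) received a control siRNA against firefly luciferase, which is not a human gene, and NSD2-KD cells (3 libraries) each received a different siRNA against NSD2, named NSD2-1, NSD2-2 and NSD2-3. NSD2 is a methyltransferase of lysine 36 of histone H3, and the study names mono-, di- and/or trimethyl marks as its products. Since every NSD2-KD library has its own siRNA, the siRNA and the replicate cannot be told apart, and p-values measure the spread between these libraries only.

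Glycolysis splits glucose into pyruvate in the cytosol, with a small yield of ATP, and fibroblasts reduce much of that pyruvate to lactate and export it. The pentose phosphate pathway branches off at glucose 6-phosphate. Its oxidative arm makes NADPH, and its non-oxidative arm exchanges sugar phosphates with glycolysis and supplies ribose for nucleotides. When oxygen is scarce, prolyl hydroxylases no longer mark HIF-1α and HIF-2α for destruction, and these proteins pair with ARNT and raise the transcription of glucose transporters, glycolytic enzymes and VEGFA. That control acts mainly on the HIF proteins, so mRNA levels of HIF1A and EPAS1 do not measure HIF activity.

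The libraries held between 2473691 and 2845063 reads on genes, and a normalized count is the number of reads divided by a size factor for the library. NSD2, listed as WHSC1, was at 463 and 443 normalized counts in Ctr-KD and at 90.2, 81.9 and 87.9 with NSD2-1, NSD2-2 and NSD2-3, a log2 difference of -2.37 (SE 0.12, adjusted p = 0.000464 by limma). The pair of Ctr-KD libraries was nearly as alike as counting allows (chi-square over its degrees of freedom 1.05, chi-square p = 0.000176), against 3.87 to 5.29 for the other pairs, and although the methods call them biological replicates, values this close do not show separate cultures, so the Ctr-KD spread may be technical. Most of the spread behind the errors below lies between the NSD2 siRNAs. All 9 fibroblast markers were present, their summed level being 216800 to 221800 in Ctr-KD and 202200 to 228100 in NSD2-KD, while the endothelial markers PECAM1 and CDH5 and the blood marker PTPRC were at 0 in every library. VWF, the third endothelial marker, was at 1.9 to 5.5. The 5 epithelial markers, 3 of which were under 10 in each library, summed to 160 to 162 in Ctr-KD and 150 to 264 in NSD2-KD. KRT8 and KRT18 made up nearly all of that sum, and both were highest with NSD2-3, at 106 and 154. The 3 blood markers summed to 71.0 to 80.0 in Ctr-KD and 60.5 to 105 in NSD2-KD, nearly all of it CD68. A set of 6 proliferation genes held MKI67, TOP2A, CCNA2, CCNB1, MCM3 and RRM2. These lay lower in each NSD2-KD library, by a mean log2 of -1.02, -1.64 and -1.33. The study reports lower cell cycle genes in the same libraries, so this fall is no separate finding. Its part in the values below was not tested. In such bulk samples fewer cells of a type and less RNA per cell cannot be told apart.

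The median log2 difference of the listed genes was close to 0, and single genes differed in both directions. With 2 against 3 libraries limma called few genes of any kind, so a gene that was not called may still differ. Of the 40 genes, 38 had a mean normalized count of at least 10 and were tested with limma on log2(normalized count + 1), a scale that understates changes of genes with low counts. None passed an adjusted p of 0.05, in either direction, where limma called 6 genes lower (0.053% of the 11313 tested) and 4 higher (0.0354%). edgeR's test on the recovered reads called 0 of them as well (0.141% of all genes), and DESeq2 called 1, the glucose transporter SLC2A3 (0.53% of the genes it tested). At an unadjusted p under 0.05, limma gave 1 of the 38 lower (4.99% of all genes), LDHA, and 5 higher (4.19%), namely SLC2A3, PFKFB3, EGLN1, PGD and TKT. The median log2 difference was 0.04 over the 38 genes and -0.01 over all tested genes, and the median absolute difference was 0.09 against 0.16. These absolute differences are not matched for abundance, and counting error is larger at low counts. A mean of 100 normalized counts or more was reached by 30 of the 38 genes and by 5120 of all 11313. For 34 of the 38 the 95% interval of the difference lay within 2-fold on either side of Ctr-KD. The exceptions were HK2, ALDOC, SLC2A3 and PDK4. Without the NSD2-2 library the median over the 38 genes moved from 0.04 to -0.06, while that of all genes was -0.00386.

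All 3 NSD2-KD libraries lay above both Ctr-KD libraries for 6 of the 38 genes (15.8%, where 13.8% of all tested genes did so): SLC2A3, PFKFB3, EGLN1, PGD, TALDO1 and TKT. All 3 lay below both for another 6 (15.8%, against 13.9% of all tested genes): ALDOC, PGK1, PGAM1, ENO1, LDHA and ARNT. These shares are close to those of all genes. For the other 26 genes the groups overlapped. When a single library was left out, between 6 and 12 of the 38 genes lay below and between 8 and 10 above. The count of 12 below was reached without NSD2-2, where 20.6% of all tested genes lay below and the 12 genes were 31.6% of the 38.

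**Figure D1:**
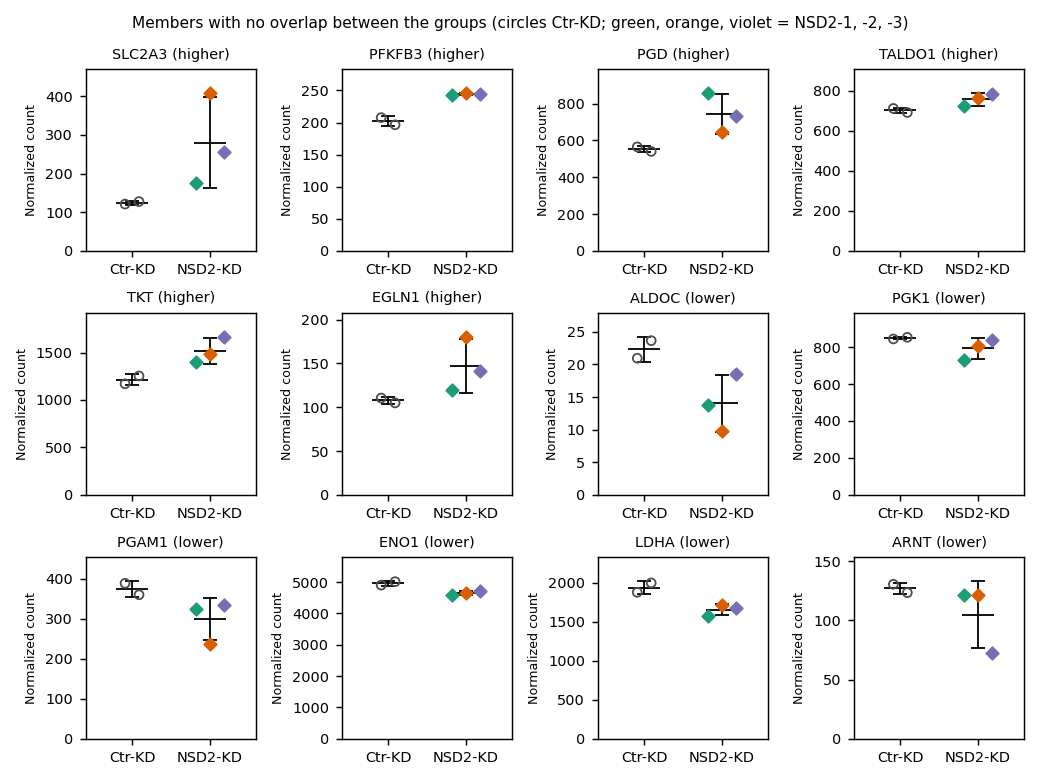
Normalized count (vertical axes, starting at 0) of the 12 genes whose groups did not overlap, with Ctr-KD libraries as open circles, NSD2-KD libraries as diamonds coloured by siRNA, and bars for mean ± SD (n = 2 and n = 3). The Ctr-KD points nearly coincide, and the diamonds are widest apart for SLC2A3, where they run from 177 to 408.

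HIF proteins are known to bind close to the start of several glycolytic genes, so the bases before the transcription start are shown for 5 of these genes, chosen after their values and matches were seen as examples with several matches, with 1 and with none. RefSeq starts on GRCh38.p14 were found for 35 of the 40 genes, and for 11 of these 12. Each sequence runs 5′ to 3′ on the strand of the gene, from 250 bases before the first listed start up to that start, or up to the first stretch that also occurs in an annotated transcript of the gene. Capitals mark the core of the hypoxia response element, ACGTG or GCGTG, read on either strand. Where 2 such matches overlap, as in CACGTG, they form a single run of capitals. The windows lie at chr1:10398814-10399043 on the plus strand for PGD, chr3:53256053-53256272 on the minus strand for TKT, chr11:18394313-18394562 on the plus strand for LDHA, chrX:78103998-78104247 on the plus strand for PGK1 and chr1:231422288-231422537 on the minus strand for EGLN1.
PGD: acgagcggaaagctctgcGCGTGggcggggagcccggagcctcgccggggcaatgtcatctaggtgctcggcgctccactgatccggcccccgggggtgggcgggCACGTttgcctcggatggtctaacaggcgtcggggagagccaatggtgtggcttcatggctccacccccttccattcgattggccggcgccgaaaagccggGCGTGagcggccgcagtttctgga
TKT: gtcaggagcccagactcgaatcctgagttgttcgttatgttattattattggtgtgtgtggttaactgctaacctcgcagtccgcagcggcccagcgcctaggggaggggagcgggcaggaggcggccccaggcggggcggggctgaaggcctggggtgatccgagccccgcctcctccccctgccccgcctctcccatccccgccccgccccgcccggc
LDHA: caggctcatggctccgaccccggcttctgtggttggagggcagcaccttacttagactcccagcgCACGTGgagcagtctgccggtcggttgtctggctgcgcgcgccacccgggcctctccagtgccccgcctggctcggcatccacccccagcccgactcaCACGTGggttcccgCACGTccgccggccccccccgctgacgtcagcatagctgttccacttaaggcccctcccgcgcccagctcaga
PGK1: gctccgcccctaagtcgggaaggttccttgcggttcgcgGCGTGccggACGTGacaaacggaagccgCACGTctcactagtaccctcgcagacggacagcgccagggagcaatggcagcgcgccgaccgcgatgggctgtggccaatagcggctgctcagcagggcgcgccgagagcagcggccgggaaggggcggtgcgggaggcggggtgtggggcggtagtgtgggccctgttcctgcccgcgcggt
EGLN1: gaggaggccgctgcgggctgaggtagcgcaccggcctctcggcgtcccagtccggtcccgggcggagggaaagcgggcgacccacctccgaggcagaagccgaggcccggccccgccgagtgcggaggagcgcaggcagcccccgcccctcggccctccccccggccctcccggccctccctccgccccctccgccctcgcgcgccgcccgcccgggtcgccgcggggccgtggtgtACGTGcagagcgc

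In the LDHA window the 5 matches began 185, 184, 87, 86 and 73 bases before the start, and all were ACGTG or its reverse complement. PGK1 held 3 matches, at 211, 202 and 183 bases, and PGD held 3, at 232, 145 and 44 bases, with a single ACGTG-type match at 145. EGLN1 held 1, at 13 bases. The windows not shown were counted over all 250 bases, without the cut at stretches found in an annotated transcript. Of these, ALDOC held 5 matches, ENO1 2 and PFKFB3 1, and those of TALDO1, PGAM1 and ARNT held none, as did that of TKT. For ENO1 and PGAM1 such a stretch began at the first base, so the cut would leave no sequence to read. For ALDOC the matches nearest the start lay past the cut. The matches of ENO1 and these of ALDOC may therefore lie in transcribed sequence. Over all 250-base windows of the table, 43.2% of 35116 held the core, and 53.1% of the 64 windows of the listed genes did. For ACGTG alone the shares were 18.5% and 34.4%. TGACNNNGC, the core of the antioxidant response element, occurred in 10.9% of all windows and 12.5% of those of the listed genes, and among the 11 genes with groups apart and a listed start the windows of PGD, ALDOC and ARNT held 1 match each. Such a match describes the letters and is not a measured binding site.

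Among the 38 tested genes, the largest log2 difference was in a glucose carrier. SLC2A3, the high-affinity glucose transporter GLUT3 (chromosome 12 of GRCh37, 8071826 to 8171603), was at 121 and 128 normalized counts in Ctr-KD and at 177, 408 and 256 with NSD2-1, NSD2-2 and NSD2-3. All 3 siRNAs were above both controls, and NSD2-2 stood far above NSD2-1. The mean was 226% of Ctr-KD and the log2 difference 1.08 (SE 0.30, 95% interval 0.41 to 1.76, adjusted p = 0.295 by limma). The call depended on the test, since edgeR gave an adjusted p of 0.257 and DESeq2 one of 0.0404, and over all settings the adjusted p ran from 0.0404 to 1 and the log2 difference from 0.77 to 1.37.

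SLC2A1, the widely expressed transporter GLUT1, gave 641 and 593 normalized counts in Ctr-KD and 592, 984 and 942 in NSD2-KD. It was above the controls with NSD2-2 and NSD2-3 but not with NSD2-1, so the groups overlapped (log2 difference 0.41, SE 0.20, adjusted p = 0.606 by limma). Per kilobase of the canonical transcript, SLC2A1 was the more abundant of the pair, and SLC2A3 made up 14.3% and 16.0% of their sum in Ctr-KD and 20.9%, 26.9% and 19.4% in NSD2-KD, with no overlap. The lactate carriers stayed near their Ctr-KD level. SLC16A3 (MCT4, which exports lactate) was at 1113 and 1176 against 1061, 1402 and 1146, and SLC16A1 (MCT1) at 197 and 204 against 218, 173 and 244. In both the groups overlapped, with log2 differences of 0.06. SLC16A3 made up 89.2% of the pair in Ctr-KD and 88.9% in NSD2-KD.

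In upper glycolysis, from glucose to the triose phosphates, 8 of 9 genes overlapped between the groups and the median log2 difference was -0.03. Of all tested genes, only 13.9% lay below and 13.8% above both controls in every NSD2-KD library, so such overlap is common. HK2, the inducible hexokinase that binds mitochondria, gave 106 and 119 normalized counts in Ctr-KD and 113, 84.1 and 35.1 in NSD2-KD. It was at its Ctr-KD level with NSD2-1, at 74.7% of it with NSD2-2 and at 31.2% with NSD2-3. The NSD2-3 value rests on 36 reads, with a 95% Poisson interval of 24.6 to 48.7 normalized counts that covers counting error only. This spread between siRNAs, 1.66 on the log2 scale, was wider than in 98.8% of tested genes. The log2 difference between the groups was -0.68 (SE 0.42, adjusted p = 0.687 by limma). HK1, the constitutive hexokinase, was at 567 and 547 against 523, 672 and 480 and supplied 88.5% of the pair per kilobase in Ctr-KD and 92.0% in NSD2-KD.

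GPI, which converts glucose 6-phosphate to fructose 6-phosphate, was at 728 and 720 against 665, 852 and 722. The groups also overlapped for the 3 phosphofructokinases, which catalyse the committed step. PFKP, the platelet form, had 1245 and 1240 normalized counts against 1146, 1326 and 1049 and made up 67.9% of the family per kilobase in Ctr-KD and 65.8% in NSD2-KD. PFKL, the liver form, was at 429 and 490 against 479, 485 and 448, and PFKM, the muscle form, at 203 and 205 against 265, 199 and 182, where only NSD2-1 exceeded the controls. Among these 4 genes the log2 differences ran from -0.09 for PFKP to 0.06 for PFKM.

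ALDOA, the main aldolase, was at 2586 and 2686 normalized counts against 2496, 2718 and 2542. It overlapped, while its minor relative ALDOC did not. ALDOC, the brain form, gave 21.0 and 23.7 against 13.8, 9.83 and 18.5, a log2 difference of -0.67 (SE 0.32, adjusted p = 0.59 by limma), and supplied under 1% of the pair per kilobase in every library. TPI1, which interconverts the triose phosphates, was at 941 and 988 against 879, 1032 and 933, with a log2 difference of -0.03. All 9 genes of this stretch thus had log2 differences between -0.68 and 0.06.

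In lower glycolysis, from glyceraldehyde 3-phosphate to lactate, all 8 log2 differences were negative, with a median of -0.08 and a range from -0.34 to -0.004, and 4 of the 8 genes lay below both controls in every NSD2-KD library. Of all 11313 tested genes 5822 had a negative difference and 13.9% lay below both controls, and none of the 8 passed the test. LDHA, which reduces pyruvate to lactate (chromosome 11 of GRCh37, 18416107 to 18429972), was at 1881 and 2001 normalized counts in Ctr-KD and at 1574, 1714 and 1679 in NSD2-KD. The NSD2-KD values were close to each other and all below the controls, at 85.3% of the Ctr-KD mean. The log2 difference was -0.23 (SE 0.09, unadjusted p = 0.0273, adjusted p = 0.455 by limma). LDHB, the heart form, was at 853 and 849 against 856, 877 and 701 and overlapped, with a lower value with NSD2-3. LDHA was 57.0% of the pair per kilobase in Ctr-KD and 54.4% in NSD2-KD.

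PGAM1, a phosphoglycerate mutase, was at 389 and 360 normalized counts against 324, 238 and 335, lowest with NSD2-2. The log2 difference was -0.34 (SE 0.16, adjusted p = 0.583 by limma). ENO1, the main enolase, was at 4903 and 5013 against 4594, 4663 and 4722, the narrowest band of any gene of lower glycolysis, and its log2 difference was -0.09 (SE 0.07, adjusted p = 0.775 by limma). PGK1, which makes ATP from 1,3-bisphosphoglycerate, was at 844 and 853 against 731, 807 and 840, so that NSD2-3 lay just under the lower control. Its log2 difference of -0.10 had an adjusted p of 0.814 by limma.

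GAPDH, often used as a reference transcript, was at 9269 and 9561 normalized counts against 8778, 9573 and 8894. It overlapped, its log2 difference was -0.05 with a 95% interval of -0.23 to 0.13, and it ranked between 16 and 18 among all genes by reads in each library. PKM, the pyruvate kinase, was at 6135 and 6242 against 5846, 6813 and 5899, above the controls with NSD2-2 and below with the other siRNAs. ENO2, the neuronal enolase, was at 92.4 and 95.7 against 103, 96.1 and 71.3 and supplied 1.45% of the enolase pair per kilobase in Ctr-KD and 1.48% in NSD2-KD. Without NSD2-1 the sign of PKM turned, at 0.03, as it did without the second Ctr-KD library, at 0.008, and without NSD2-3 those of PKM, ENO2 and LDHB did, at 0.03, 0.08 and 0.03.

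**Figure D2:**
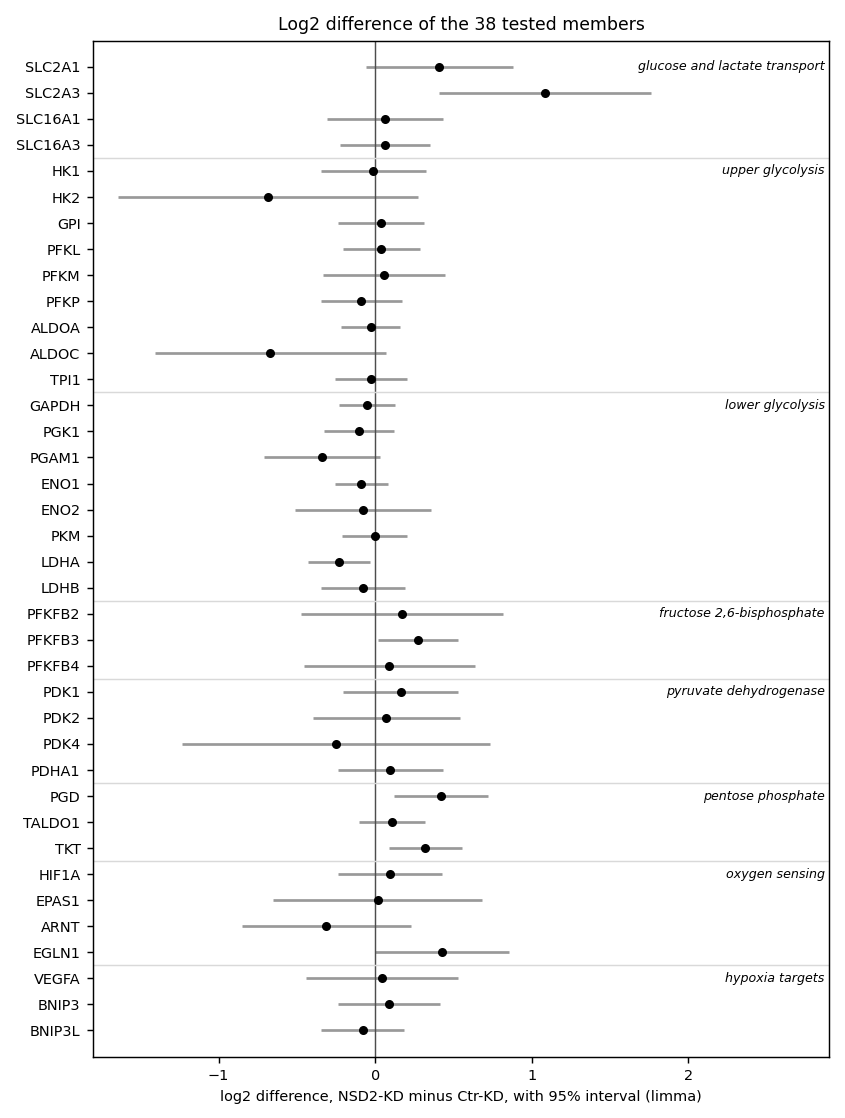
Log2 difference between NSD2-KD and Ctr-KD (horizontal axis, points) with its 95% interval from limma (bars) for the 38 tested genes, grouped by role. The 8 genes of lower glycolysis all lie at or left of 0, the 3 pentose phosphate genes lie right of 0, and the interval of SLC2A3 is the one farthest from 0.

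The bifunctional PFKFB enzymes set the level of fructose 2,6-bisphosphate, which activates phosphofructokinase. PFKFB3, the form with the strongest kinase activity (chromosome 10 of GRCh37, 6186897 to 6296607), was at 208 and 197 normalized counts in Ctr-KD and at 243, 246 and 245 in NSD2-KD. The 3 siRNAs gave nearly the same value, a range of 0.02 on the log2 scale that was the narrowest of the 38 genes, at 121% of Ctr-KD. Their 95% Poisson intervals were far wider (214.5 to 274, 214.7 to 280 and 215.6 to 277), so the values are closer than counting can resolve. The log2 difference was 0.27 (SE 0.11, unadjusted p = 0.0385, adjusted p = 0.505 by limma). PFKFB4 was at 30.5 and 25.7 against 25.8, 29.5 and 35.1 and PFKFB2 at 13.3 and 12.3 against 12.9, 16.4 and 14.6, and both overlapped. PFKFB3 was 82.1% of the family per kilobase in Ctr-KD and 83.7% in NSD2-KD.

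Pyruvate enters the mitochondrial citric acid cycle through pyruvate dehydrogenase, which PDK kinases switch off. None of the 4 tested genes of this step was apart between the groups, where 13.9% of all tested genes were lower and 13.8% higher throughout. PDHA1, the catalytic subunit, was at 149 and 134 normalized counts against 161, 133 and 160. PDK1, the kinase induced by hypoxia, was at 72.4 and 84.4 against 89.3, 91.8 and 82.0, with a log2 difference of 0.16, and PDK2 was at 61.9 and 49.4 against 56.1, 51.3 and 68.3. PDK4, which responds to fasting, was at 17.1 and 10.3 against 11.0, 17.5 and 6.83, and with so few reads its 95% interval ran from -1.23 to 0.73 on the log2 scale.

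PDK3 was too low to be tested. It had 7 and 9 reads in Ctr-KD and 3, 2 and 0 in NSD2-KD, so that every NSD2-KD library was below both controls. Over the summed reads, 16 against 5, the ratio of NSD2-KD to Ctr-KD was 0.209, with an exact counting interval of 0.0598 to 0.596 that leaves out the spread between libraries. A count of 3 reads or fewer is not distinguishable from 0 here. Per kilobase PDK2 was the leading kinase of the family, with 54.1% in Ctr-KD and 62.5% in NSD2-KD. That order rests on the canonical lengths, 14072 bases for PDK1 and 3364 for PDK2, since PDK1 had more normalized counts in every library. The PDK2 share also depends on that of PDK3, which went from 15.2% to 3.41% on the few reads above.

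All 3 pentose phosphate enzymes of the list lay above both controls with every siRNA (13.8% of all tested genes did), with a median log2 difference of 0.32, and none of the 3 passed the test. PGD, which makes NADPH in the oxidative arm (chromosome 1 of GRCh37, 10458649 to 10480568), was at 565 and 540 normalized counts in Ctr-KD and at 858, 643 and 733 in NSD2-KD, highest with NSD2-1. The mean was 135% of Ctr-KD and the log2 difference 0.42 (SE 0.13, 95% interval 0.12 to 0.72, adjusted p = 0.356 by limma). TKT, transketolase of the non-oxidative arm (chromosome 3, 53258728 to 53290068), was at 1171 and 1253 against 1399, 1486 and 1664, 125% of Ctr-KD, with a log2 difference of 0.32 (SE 0.10, 95% interval 0.09 to 0.55, adjusted p = 0.375 by limma). TALDO1, transaldolase, was at 711 and 690 against 721, 763 and 784, the smallest step of the 3 (log2 difference 0.11, SE 0.09, adjusted p = 0.782 by limma). None of the 3 changed sign under any alternative, and none passed the threshold in any, the smallest adjusted p being 0.15 for PGD, 0.204 for TKT and 0.599 for TALDO1.

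A second list held further pentose phosphate genes, of which 7 were tested, and 4 of these 7 overlapped between the groups. Of all tested genes, 13.9% lay below and 13.8% above both controls in every NSD2-KD library. PGLS, the lactonase of the oxidative arm, was at 116 and 123 normalized counts against 133, 139 and 128. It was above the controls in every NSD2-KD library, with a log2 difference of 0.15 (adjusted p = 0.793 by limma), and it is named here after its values were seen. PRPS2, which uses the ribose 5-phosphate made by the pathway, had the largest negative difference among genes of that list with groups apart, at 52.4 and 43.2 against 25.8, 31.7 and 27.3 (log2 difference -0.74, SE 0.22, adjusted p = 0.338 by limma).

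**Figure D3:**
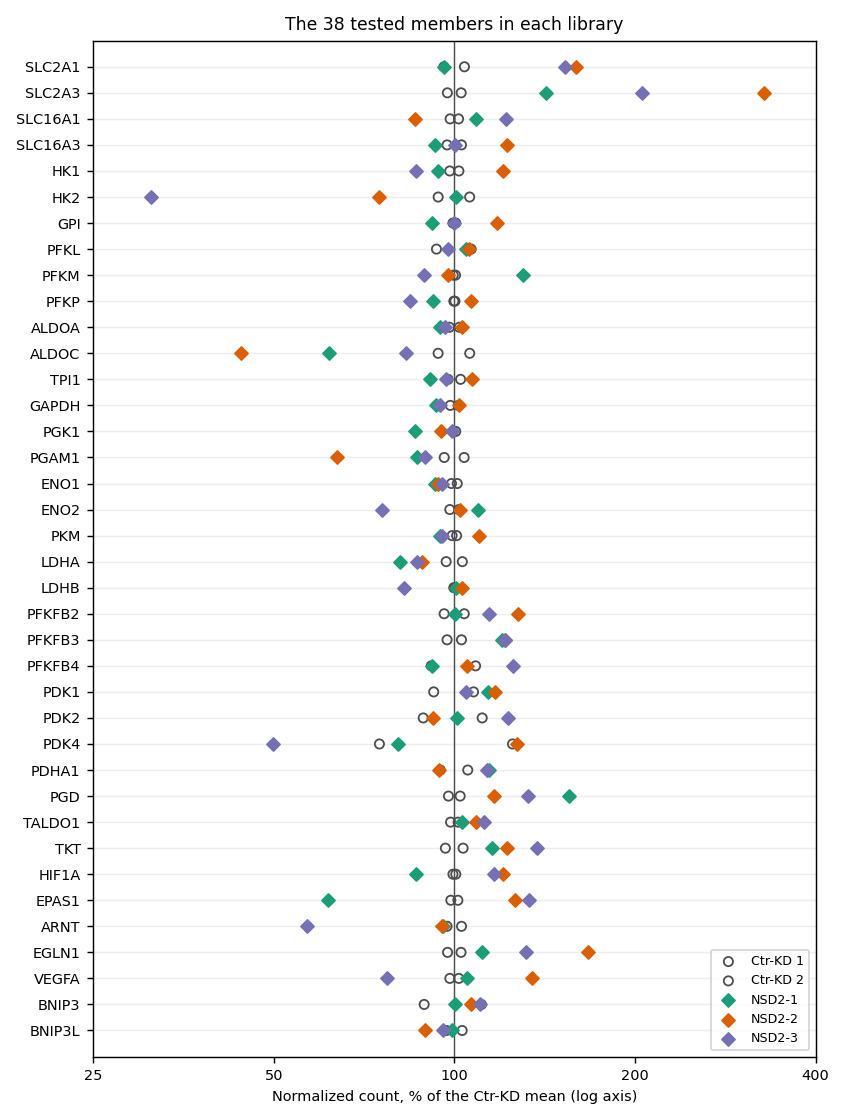
Normalized count of each of the 38 tested genes as a percentage of its Ctr-KD mean (horizontal log axis), with Ctr-KD libraries as open circles and NSD2-1, NSD2-2 and NSD2-3 as green, orange and violet diamonds. HK2 and ARNT are low with NSD2-3, EPAS1 is low with NSD2-1, and SLC2A3 is highest with NSD2-2.

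EPAS1, which encodes HIF-2α, was at 1649 and 1694 normalized counts in Ctr-KD and at 1030, 2110 and 2230 in NSD2-KD. NSD2-1 left it at 61.6% of the Ctr-KD mean while NSD2-2 and NSD2-3 had it at 126% and 133%, and the Poisson intervals of these counts (970 to 1092, 2017 to 2207 and 2139 to 2323) did not meet those of Ctr-KD (1572 to 1729 and 1614 to 1778). These intervals cover counting error only, and with 1 library for each siRNA the shifts have no replicate check. The log2 difference of the groups was 0.02 (SE 0.29), the sum of opposite shifts, and it was -0.02 after quantile normalization. HIF1A, which encodes HIF-1α, was at 1028 and 1039 against 893, 1244 and 1205, with the same split of siRNAs but smaller. EPAS1 was 55.3% of the pair per kilobase in Ctr-KD and 54.0% in NSD2-KD.

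ARNT, the partner of both HIF proteins, was at 130 and 123 normalized counts against 121, 121 and 72.2. It lay just under the controls with NSD2-1 and NSD2-2 and at a log2 of -0.80 relative to the Ctr-KD mean with NSD2-3, so the group difference of -0.31 (SE 0.24, adjusted p = 0.751 by limma) rests on NSD2-3. EGLN1, the prolyl hydroxylase PHD2 that marks HIF proteins for destruction (chromosome 1 of GRCh37, 231499497 to 231558033), was at 110 and 105 against 120, 180 and 142. All were above the controls, by the least with NSD2-1, at 111% of the Ctr-KD mean. The NSD2-KD mean of EGLN1 was 137% of that of Ctr-KD, with a log2 difference of 0.43 (SE 0.19, unadjusted p = 0.0496, adjusted p = 0.544 by limma). EGLN3, the hypoxia-inducible hydroxylase PHD3, had 0 reads in all 5 libraries, with upper 95% Poisson limits between 3.39 and 4.03 normalized counts.

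The 3 hypoxia targets overlapped between the groups, where 13.9% of all tested genes were lower and 13.8% higher throughout. VEGFA, the vascular growth factor, was at 235 and 227 normalized counts against 243, 311 and 179, above the controls with NSD2-2 and below with NSD2-3. BNIP3, a mitophagy receptor, was at 149 and 185 against 168, 178 and 184, and its relative BNIP3L at 237 and 252 against 242, 218 and 234. Their log2 differences were 0.04, 0.09 and -0.08, with 95% intervals of -0.44 to 0.53, -0.24 to 0.41 and -0.34 to 0.19. BNIP3 was 60.3% of the pair per kilobase in Ctr-KD and 63.1% in NSD2-KD.

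Across the 38 genes, NSD2-1 was the lowest NSD2-KD library for 20 and NSD2-2 the highest for 20, while over all tested genes NSD2-1 was lowest for 3702 and NSD2-2 highest for 3804 of 11313. NSD2-2 was also the library with the largest fall of the proliferation genes, and the part of it in these values was not tested. The range over the 3 siRNAs had a median of 0.38 on the log2 scale for the 38 genes and 0.39 for all tested genes. At means of 100 normalized counts or more it was 0.33 for 30 of the 38 and 0.29 for all 5120. It was widest in HK2 at 1.66, followed by PDK4 at 1.24, SLC2A3 at 1.21 and EPAS1 at 1.11, and narrowest in PFKFB3 at 0.02 and ENO1 at 0.04. The 40 genes together took between 1.45% and 1.59% of all reads in a library, with NSD2-1 at the low end and NSD2-2 at the high end and both Ctr-KD libraries between them.

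**Figure D4:**
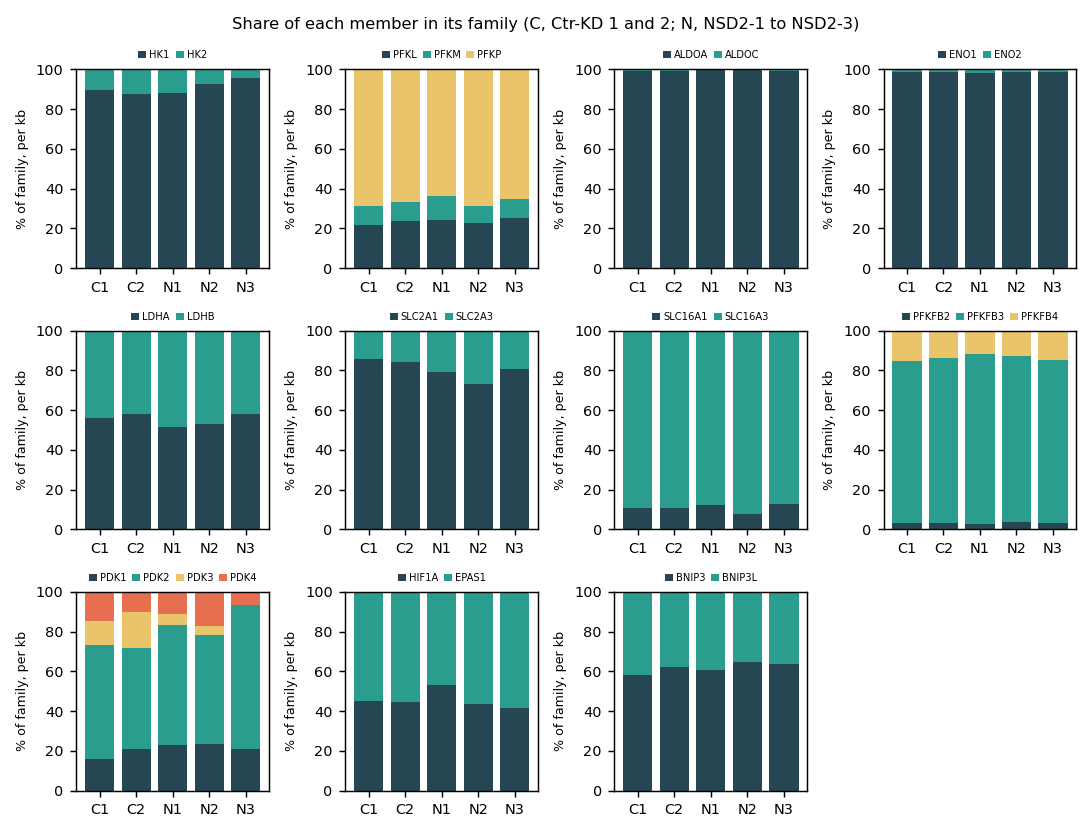
Share of each gene in its family (vertical axis, % of the summed normalized counts per kilobase of canonical transcript) in each library, C1 and C2 for Ctr-KD and N1 to N3 for NSD2-1 to NSD2-3. ALDOA and ENO1 supply nearly all of their pairs in every library, and the SLC2A3 share is larger in all 3 NSD2-KD libraries.

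Levels per kilobase placed GAPDH first, at 7327 normalized counts per kilobase in Ctr-KD, ahead of ENO1 at 2784, PKM at 2685 and ALDOA at 1608. These 4 stood well apart from LDHA at 866. Reads could be shared for some genes. Pseudogenes named after the gene number 65 for GAPDH, 44 for BNIP3 and 13 for PGAM1, and reads that map to several places had been left out. TPI1, SLC16A3, PDK1, PDK2, PDHA1 and HIF1A overlap exons of a named gene on the other strand, GPI, PFKP, ALDOA, LDHB, HIF1A and EGLN1 those of an unnamed gene on the same strand, and the strand setting of the counting is not given in the sources used here.

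The second list held 70 further genes of the same pathways, of which 48 were tested. None was called by limma, edgeR or DESeq2. At an unadjusted p under 0.05, 4 of the 48 were lower and 6 higher by limma (4.99% and 4.19% of all tested genes), and 6 lay below and 10 above both controls in every NSD2-KD library (13.9% and 13.8% of all tested genes). The largest positive difference among those with groups apart was that of SLC2A12, a glucose transporter of low abundance, at 15.2 and 22.6 normalized counts against 41.4, 26.2 and 46.9 (log2 difference 0.96, SE 0.31, adjusted p = 0.389 by limma). HMOX1, a heme oxygenase induced by hypoxia and by oxidative stress, was at 96.2 and 123 against 719, 359 and 94.7, so that it was several times the controls with NSD2-1 and NSD2-2 and at their level with NSD2-3. Its log2 difference was 1.41 (SE 0.68, adjusted p = 0.592 by limma), and HMOX1 is named here after its values were seen. Without NSD2-3 the difference was 2.21 (adjusted p = 0.0376 by limma). That fit leaves out the only NSD2-KD library at the control level, so it is no separate support for a rise.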

How the data were processed

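Messenger RNA of growing IMR-90 cells was sequenced in 5 libraries, which were grouped by the siRNA in the sample labels. The control siRNA is named in the study's methods, which state alignment to hg19 (HISAT2), a filter for unique alignments (SAMtools) and gene counts (featureCounts). The deposited signal is the count that the authors divided by a DESeq2 size factor of the library. All values were whole multiples of the value of 1 read (100% within 0.01), so reads were recovered. Size factors hide a change shared by all genes. A second table, which holds fold changes and p-values of the authors' own comparison, was not used.

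limma 3.58.1 (R 4.3.3) was run with a mean-variance trend and no covariate on log2 of the normalized count plus a pseudocount of 1, for genes averaging 10 or more. Tests were two-sided, with Benjamini-Hochberg adjustment over all 11313 genes and a threshold of 0.05. Permuting 2 against 3 libraries exactly cannot give a p under 0.1. The code was tested on simulated data. Alternatives were edgeR 4.0.16 with TMM and DESeq2 1.42.0 on the recovered reads, other pseudocounts, filters and scalings, limma with robust estimation or no trend, a replicate block, and each library left out. Counts of genes with groups apart were also taken without each library, a choice made after seeing the data. The listed genes, the second list and the tests were chosen with earlier results of these data known. The genes named are all listed genes, NSD2, and of the second list any called and the largest fall and rise with groups apart. Others are marked in the text. Positions and lengths came from GENCODE on GRCh37 and promoters from RefSeq on GRCh38.p14. Counting intervals are exact Poisson at 95%. A gene of the second list is not reported here.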

Additional observations from a re-analysis of the deposited data

How the results depend on the processing

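Across the single-gene values under the alternatives, 528 of 566 kept their direction and their side of the threshold, 37 reversed in 16 genes, and 1, SLC2A3 with DESeq2, passed the threshold, so that 1 listed gene was called higher there. DESeq2 also turned HK1 to 0.001824, and quantile normalization turned EPAS1 to -0.01576. The other filters, robust estimation and the fit without the trend leave a gene's log2 difference as it is, so no sign could reverse there. The replicate block and the fit without NSD2-3 give the same log2 differences, so their reversals are counted in both. No listed gene was called by the main test, so staying on that side of the threshold is a weak check. The libraries' numbers name siRNAs in NSD2-KD, so the replicate block was not taken as a pairing. That block uses only the 4 libraries with shared numbers to set the difference. Deviations of same-numbered libraries had correlations of -0.015 and -0.027. These cannot decide whether libraries were paired, because the Ctr-KD libraries differ by little more than counting noise. Under the replicate block the log2 differences turned to 0.08915 (HK1), 0.08123 (ENO2), 0.02832 (PKM), 0.02634 (LDHB), -0.04667 (SLC16A1), -0.02188 (PFKFB4), -0.04217 (PDK2), 0.05963 (PDK4) and -0.1812 (EPAS1), 84 genes of all were called lower and 18 higher, and 1 gene of the second list, HMOX1, was called higher. Of all tested genes, 1 was called lower without the trend, 11 with edgeR and 41 with DESeq2, and 0 higher without the trend, 8 after quantile normalization and 14 with DESeq2. With each library left out in turn, 0 to 22 genes were called lower and 0 to 8 higher, 0 to 1 of the second list was called higher (HMOX1, without NSD2-3), 6 to 12 of the listed genes lay below and 8 to 10 above the controls throughout, and the log2 difference of NSD2 ran from -2.405 to -2.335 and lost its call without Ctr-KD replicate 1 (adjusted p = 0.0927 by limma) and without Ctr-KD replicate 2 (adjusted p = 0.0758 by limma), where 1 control remained and was assumed to vary like the NSD2-KD libraries. The log2 differences that changed sign ran over HK1 -0.1525 to 0.08915, GPI -0.06253 to 0.1157, PFKL -0.05749 to 0.134, PFKM -0.1009 to 0.1707, TPI1 -0.09034 to 0.02567, ENO2 -0.1819 to 0.08123, PKM -0.07558 to 0.03483, LDHB -0.1353 to 0.02634, SLC16A1 -0.04667 to 0.202, SLC16A3 -0.05289 to 0.1477, PFKFB4 -0.02718 to 0.2096, PDK2 -0.08837 to 0.2323, PDK4 -0.5926 to 0.09238, EPAS1 -0.1812 to 0.3757, VEGFA -0.1502 to 0.2487 and BNIP3 -0.06864 to 0.2468. The cause of these changes was not tested. The depth of each library limits genes such as PDK3, PDK4, ALDOC and PFKFB2 most.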
